A study of Mus musculus with 12 samples.

Results

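The RNA of 12 cultured mouse samples was compared with embryonic reference RNA on 2-colour spotted arrays, 1 array per sample. All 12 samples of the series were used, whatever their receptor form or growth hormone number. The quantity described is the log2 ratio of sample over reference for each gene, with the median of the array's gene spots subtracted, so 0 stands for the median spot and 1 for a 2-fold higher ratio. Genes were ranked by their mean over the 12 arrays and by how consistent the arrays were. The samples form 4 groups of 3 arrays, WT 0GH and WT 1GH on one side and NLS 0GH and NLS 1GH on the other, named after the growth hormone receptor form (WT, wild type, or NLS, the usual abbreviation of nuclear localization signal) and a number before GH, growth hormone. Each group has 1 array with each of the letters b, c and d. All samples list human growth hormone at 100 ng/ml and a time course, but the labels give neither a unit for the 0 and 1 nor the meaning of a 10 in every title. They name no cell type and do not say whether the letters are separate cultures, so p-values measure only the spread between these samples. The Cy3 channel held the sample and the Cy5 channel the reference, which came from a commercial supplier of embryonic RNA.

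An embryo holds many tissues at once, among them liver, muscle, cartilage, skin, nerve and blood. A common reference of this kind gives most spots some signal, and a ratio against it shows which transcripts a sample carries in a higher or lower proportion than that mixture. Genes of the mixture that the sampled cells do not use come out low, and genes concentrated in the sampled cells come out high. A ratio belongs to its own spot, so it does not rank transcripts by abundance.

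The labels do not state which channel is the numerator. The sign was settled from 2 gene lists, connective tissue and matrix, and proteins secreted by fetal liver and yolk sac, which are abundant in an embryo. Of their 55 genes with a value, 51 lay on the reference side with the deposited values multiplied by -1, with a median of -4.10, and this direction is therefore likely rather than known. The opposite reading would turn every sign below, and the low side of those 2 lists is no result. The base of 2 is inferred from the range of the values. With a floor of 200 in the control channel, a 16-bit scanner gives a log2 ratio over that channel of at most 8.36, so values above that are not exact levels. The floor is stated for the control channel, read here as the reference, so it sets no limit on the low side. There, 8.36 in size only marks extreme values.

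Between 15939 and 19700 spots had a value on an array. Pairs of arrays correlated between 0.323 and 0.726 across genes, with a median of 0.536 for arrays of the same letter and 0.432 for arrays of the same group, and genes are not independent replicates. A value on all 12 arrays existed for 10762 features, 8707 of them named genes, which is 57.7% of the 15080 named genes on the array. Features measured on fewer arrays lay lower. With all spots of a gene averaged, the median of the means was 0.25 for features with a value on all 12 arrays, -0.50 on 9 to 11, -1.84 on 6 to 8 and -2.60 on 1 to 5. The features with all values thus leave out many genes that were low in the samples.

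Many features differed from the embryonic reference in the mean over the 12 samples, and few did so by this size on every array. By limma's moderated test with Benjamini-Hochberg adjustment, 2156 of 10762 features (20%) were called higher in the samples and 1349 (12.5%) lower, with an adjusted p under 0.05 and a mean of at least 1 in size. A stricter description needs no test. Above 1 on all 12 arrays lay 186 features (1.73%) and below -1 on all 12 lay 187 (1.74%), while 1421 (13.2%) were above 0 and 841 (7.81%) below 0 on every array. The means ran from -9.34, for an unnamed spot, to 6.40, with a median of 0.27. The low side reached further, with 110 means below -4 against 26 above 4. The division into higher and lower depends on the zero point. With the Gapdh control spots as zero, which lay 0.807 above the array median on average (SD 0.687, n = 12), 518 features were called higher and 3106 lower, so that 14.3% of calls were higher in place of 61.5%. With the median of the features measured on all arrays as zero, 1461 were called higher and 1721 lower, or 45.9% higher, and without centring 2612 and 1041, or 71.5% higher. A change of zero shifts all genes alike and leaves their order by mean as it is.

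**Figure D1:**
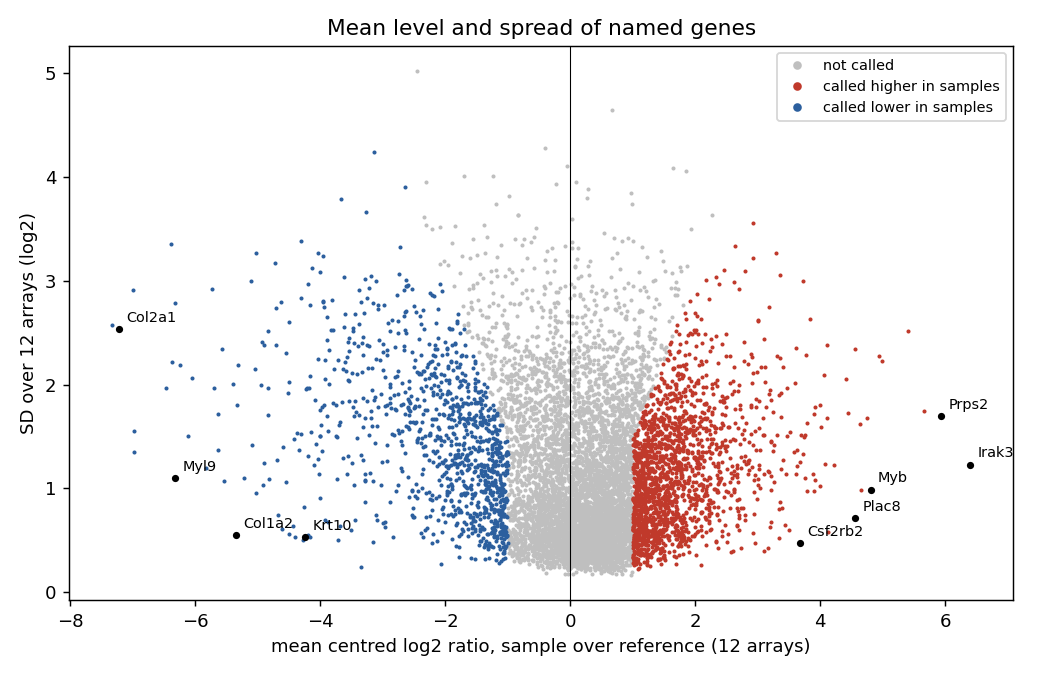
Mean centred log2 ratio of sample over reference (x axis) against the SD over the 12 arrays (y axis, log2 units), 1 point per named gene, coloured by the call. Irak3 has the highest mean at 6.40, and Col1a2 combines a mean of -5.35 with an SD of 0.55.

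Irak3, Prps2, Klrd1 and Ostm1 had the 4 highest means. Irak3, which encodes a kinase-like inhibitor of Toll-like receptor signalling, lay between 4.98 and 8.91 on the 12 arrays with a median of 6.18. Its mean of 6.40 (SD 1.23, n = 12, limma adjusted p = 1.72e-08; 5.78 without letter b) includes 1 value beyond the scanner limit, so no exact fold is given. Every array placed it above 4.9, its letter means were 7.65 (b), 5.86 (c) and 5.69 (d), and the group means, 6.11 and 6.33 for WT and 6.86 and 6.31 for NLS with 0GH before 1GH, lay within 1 SD of each other. Prps2, a phosphoribosyl pyrophosphate synthetase that feeds nucleotide synthesis, lay between 4.54 and 9.34 with a median of 5.31 and a mean of 5.94 (SD 1.70). Klrd1, the CD94 chain of lectin-like receptors of natural killer cells, lay between 3.95 and 9.44 with a median of 4.77 and a mean of 5.66 (SD 1.75). For both genes the highest values came from letter b, whose mean was 7.84 for Prps2 and 7.64 for Klrd1, against 4.38 to 5.08 for the other letters. Ostm1, needed for osteoclast and lysosome function, followed at 5.4 (SD 2.51), with 2 arrays beyond the scanner limit and a highest value of 10.60.

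The next ranks held several genes of blood cells. In bulk RNA, fewer cells of a type and less RNA per cell cannot be told apart, here and for every tissue gene that follows. Myb, a transcription factor of dividing haematopoietic precursors, lay between 3.61 and 6.42 with a median of 4.78 (mean 4.81, SD 0.99, limma adjusted p = 3.46e-08). Coro1a, an actin-binding coronin of leukocytes, lay between 2.54 and 5.79 with a median of 4.89 (mean 4.65, SD 0.98). Plac8 lay between 3.38 and 6.13 with a median of 4.47 (mean 4.56, SD 0.71). All 12 arrays showed these 3 genes above 2.5. Lcp2, the SLP-76 adaptor of immune receptor signalling, had a similar mean of 4.55 but ran from 0.65 to 10.57 (SD 2.34), so that its rank by mean is far less certain. Other genes among the 20 highest means were Sp100 (4.98), a nuclear body protein, Fam3c (4.94), Rgs5 (4.64), a regulator of G protein signalling, Akr1c12 (4.44), Csgalnact2 (4.42), Cd53 (4.23), a leukocyte tetraspanin, Cd48 (4.13), an adhesion ligand of leukocytes, and Adam10 (4.08), a membrane sheddase, with Hsdl1 (4.11), Zfp51 (4.06) and the unannotated 4930555B11Rik (4.75) and 6030458C11Rik (4.11). Sp100 had an SD of 2.23 and group means of 6.10 and 7.12 for WT (0GH, 1GH) against 2.94 and 3.77 for NLS, and the limma F test across the 4 groups gave it an unadjusted p of 0.0167 and an adjusted p of 1.0, so the difference did not pass the correction over all features.

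Ranking by the lowest array value put Irak3, Prps2, Klrd1, Myb and Plac8 first, whereas ranking by the mean relative to the SD put other genes first. Csf2rb2, the beta chain of the mouse interleukin 3 receptor, lay between 2.53 and 4.20 with a median of 3.77 (mean 3.68, SD 0.47, limma adjusted p = 2.48e-09). Its group means were 3.85 and 3.55 for WT and 3.54 and 3.77 for NLS, with 0GH before 1GH. Cd48 lay between 3.23 and 5.10 with a median of 4.12 and an SD of 0.58. Its mean was 7.08 times its SD, as against 7.81 for Csf2rb2, while for Ostm1 the mean was 2.15 times the SD. Elovl5, a fatty acid elongase, led by this measure at 7.86, with values between 1.73 and 2.44 around a median of 2.14. It is only moderately high, so a high consistency does not need a high ratio. Tnfaip8 (3.09, SD 0.40), Mbnl1, a splicing regulator (3.16, SD 0.43), Cited2, a transcriptional co-regulator (3.34, SD 0.52), Cd47, a widely expressed signal against phagocytosis (2.57, SD 0.39), and Tax1bp1 (2.74, SD 0.43) were of the same kind. Of the 100 named genes with the highest means, 49 were also among the 100 with the highest lowest-array value, and on the low side 67 of 100 were shared.

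On the reference side, the lowest mean of all was that of an unnamed spot, and the named genes that follow were among the 20 lowest. Ppp1r1c, a regulatory subunit of protein phosphatase 1, lay between -9.93 and -2.23 with a median of -7.59 (mean -7.33, SD 2.57). Before centring, 5 of its arrays lay beyond 8.36 in size. Col2a1, the main collagen of cartilage, lay between -14.16 and -5.11 with a median of -6.65 (mean -7.21, SD 2.53). Col2a1 was low on every array, but its lowest value, beyond 8.36 in size, is not read as an exact level. Myl9, a regulatory myosin light chain of smooth muscle, lay between -8.47 and -5.07 with a median of -5.86 (mean -6.32, SD 1.10, limma adjusted p = 7.88e-09). Selenop, a secreted selenium carrier made largely by liver, had a mean of -7.00 (SD 2.92), and Fabp3, a fatty acid carrier of heart muscle, one of -6.46 (SD 1.97). Fabp3 reached -10.36 on an array of letter b, while 10 of its 12 arrays lay at or above -7.36. Dlk1, an imprinted Notch-related inhibitor of differentiation, lay between -7.11 and -3.46 with a median of -5.53 (mean -5.54, SD 1.07).

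The most consistent low genes were less extreme and more even. Krt1 and Krt10, the keratins of the outer skin layers, had means of -4.41 (SD 0.54) and -4.24 (SD 0.53). Krt1 lay between -5.25 and -3.74 with a median of -4.41, and Krt10 between -4.85 and -3.17 with a median of -4.26. Both keratins lay below -3.1 on every array. Myl1, a myosin light chain of fast muscle, lay between -5.29 and -3.52 with a median of -4.13 (SD 0.50), and Apoe, a lipid carrier, between -5.14 and -3.49 with a median of -3.97 (SD 0.54). H19, an imprinted RNA of embryonic tissues, lay between -6.44 and -3.74 with a median of -4.86 (mean -5.02, SD 0.96). The unannotated gene 2310069B03Rik had the largest size of mean relative to spread, with values between -3.77 and -3.07 around a median of -3.25 (SD 0.24). Col1a2 (-5.35, SD 0.55), Ttr (-5.34, SD 0.56) and Alb (-4.43, SD 0.64) were as even, but they belong to the lists that fixed the sign. Of the 63 genes that lead any of the rankings, 31 high and 32 low, all kept their call in every alternative processing in which they were tested. These genes were picked as extremes of the same arrays, so this outcome was largely set by the choice. Other called genes, such as Mpo and Grhl2, weakened in some settings.

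**Figure D2:**
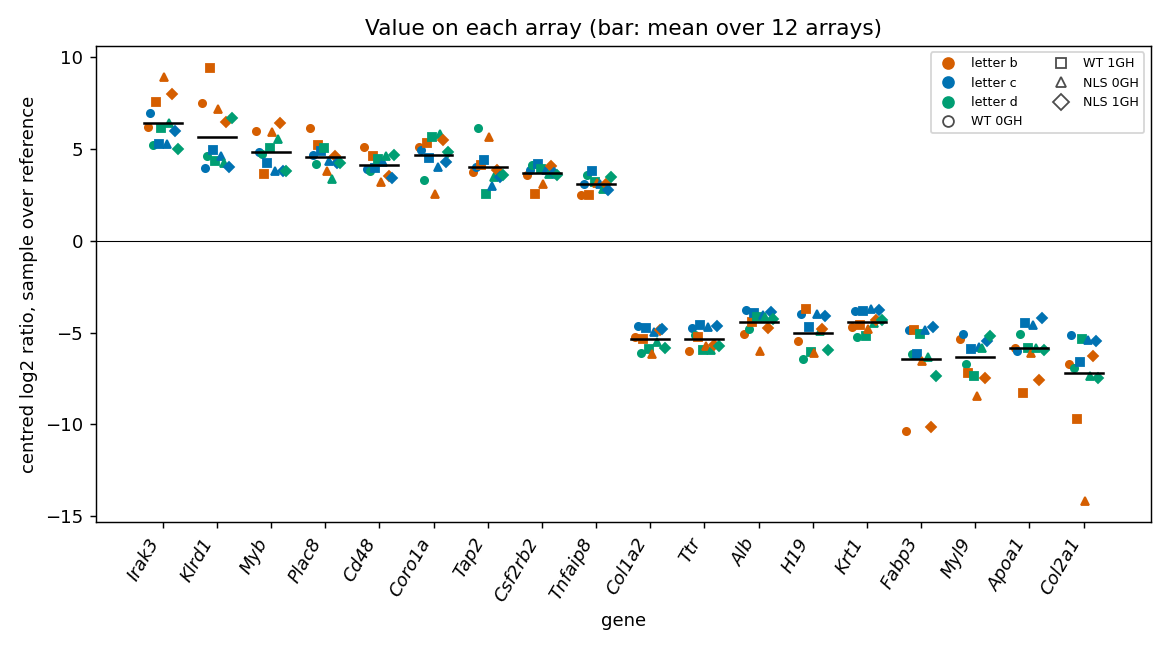
Centred log2 ratio (y axis) of 18 leading genes (x axis) on each of the 12 arrays, with colour for the letter, symbol for the group and a bar for the mean. Csf2rb2 and Tnfaip8 form tight clusters at means of 3.68 and 3.09, while Klrd1 and Fabp3 have their most extreme values on arrays of letter b.

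The ranking was repeated with arrays left out, over the same named genes, an alternative chosen after seeing the data. Without 1 of the 4 groups, 81 to 89 of the 100 highest and 87 to 92 of the 100 lowest genes stayed among the 100. Without 1 letter, which takes away 4 arrays in place of 3, 71 (b), 82 (c) and 84 (d) of the highest and 77, 84 and 82 of the lowest stayed. Without WT 67 and without NLS 79 of the highest stayed, and 79 and 80 of the lowest, each from 6 arrays. These numbers of arrays differ, so the counts are not set against each other as sizes of an effect. No feature of 10762 (0%) differed among the 4 groups by limma's moderated F test, and 346 had an unadjusted p under 0.05, with a lowest adjusted p of 1.0. Among the 3 letters 71 features (0.66%) differed, 2197 at an unadjusted p under 0.05. With the group as a term in that fit the count was 0, without centring 2717 and with quantile normalization 350, so it depends on the processing. Letter b had the widest arrays, with an SD across features of 1.85 to 2.18 against 1.55 to 1.89 for c and 1.60 to 1.93 for d. Letter b gave the highest of the 3 letter means for 66 of the 100 highest genes, as against 33.4% of all named genes, and the median of these 100 was 4.27 in letter b, 3.09 in c and 3.61 in d. The low side did not mirror this. Letter b gave the lowest letter mean for 30 of the 100 lowest genes, as against 43.4% of all named genes. Their medians were -4.72 (b), -4.19 (c) and -4.95 (d). Both sets of 100 were chosen by a mean that includes letter b, and all named genes were not. Their letter b shares are thus not a like comparison, and the part of the choice in them was not tested. Where genes that gain a full set of values also enter, 60 of the 100 highest and 57 of the 100 lowest stayed without letter b. All samples of a letter share their red dye incorporation value in the labels, and its part in these differences was not tested.

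The start regions of 4 genes from the 100 highest and 100 lowest, each holding the motif shown, are printed beside the ranking. The motif shown is TGTGGT or its complement in 2 of them and TATAAA in the other 2. RefSeq promoters of the GRCm38.p6 assembly matched 81 of the 100 highest and 81 of the 100 lowest genes by symbol, with the first listed start of each gene. Motifs were searched in the 250 bases before that start alone. TGTGGT on either strand, the core bound by RUNX factors, was in 18.5% of the highest, 11.1% of the lowest, 11.9% of all measured genes and 14.2% of all promoters. AGGAAG on either strand, an ETS core, was in 24.7%, 29.6%, 28% and 29.2% in the same order. AGATAA on either strand, a GATA core, was in 11.1%, 8.64%, 6.56% and 10.3%. TATAAA on the gene's strand was in 1 of the highest (1.23%) and 6 of the lowest (7.41%), against 6.14% of all measured genes. The 120 bases before the start are given for 2 high genes with TGTGGT or its complement ACCACA in capitals, at chr1:171681872-171681991 on the plus strand for Cd48 and chr5:100572206-100572325 on the minus strand for Plac8. The same length is given for 2 low genes with TATAAA in capitals, at chr11:99389365-99389484 on the minus strand for Krt10 and chr8:123894776-123894895 on the minus strand for Acta1. The array names no genome build, so these positions are RefSeq's. The matches are descriptions of letters, not sites.
Cd48: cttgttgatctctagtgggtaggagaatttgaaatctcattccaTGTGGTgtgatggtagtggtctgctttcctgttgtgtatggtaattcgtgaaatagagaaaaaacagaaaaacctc
Plac8: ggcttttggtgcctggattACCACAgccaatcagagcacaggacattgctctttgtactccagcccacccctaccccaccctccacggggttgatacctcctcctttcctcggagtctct
Krt10: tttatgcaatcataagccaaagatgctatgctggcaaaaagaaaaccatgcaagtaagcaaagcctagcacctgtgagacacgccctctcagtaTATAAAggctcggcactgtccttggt
Acta1: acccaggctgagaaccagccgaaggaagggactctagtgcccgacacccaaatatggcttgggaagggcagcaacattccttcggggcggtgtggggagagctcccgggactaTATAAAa

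The pan-leukocyte list, of genes common among leukocytes though not each in every type, was the marker list with the highest median. Of 30 measured genes, 14 were higher (46.7%) and 2 lower (6.67%) than in the reference, against 20% and 12.5% of all features. The list's median was 1.18, against 0.27 for all features. Coro1a, Lcp2, Cd53 and Cd48 led it, followed by Lcp1, an actin bundler (3.26, SD 1.07), and Ptpn6, the phosphatase SHP-1 that limits cytokine signalling (3.01, SD 1.03). Ptprc, the CD45 phosphatase that defines leukocytes, had a value on 10 arrays, with a mean of 4.30. Several other pan-leukocyte genes did not stand out, with Laptm5 at 0.38 (SD 0.81), Vav1 at -0.34 (SD 1.90) and Cd52 at -0.74 (SD 1.12), and Ptpn22 (-1.70) and Evl (-1.22) were called lower. With Gapdh controls as zero the list's median was 0.38 and all features shifted by the same amount, so the distance between them did not change.

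**Figure D3:**
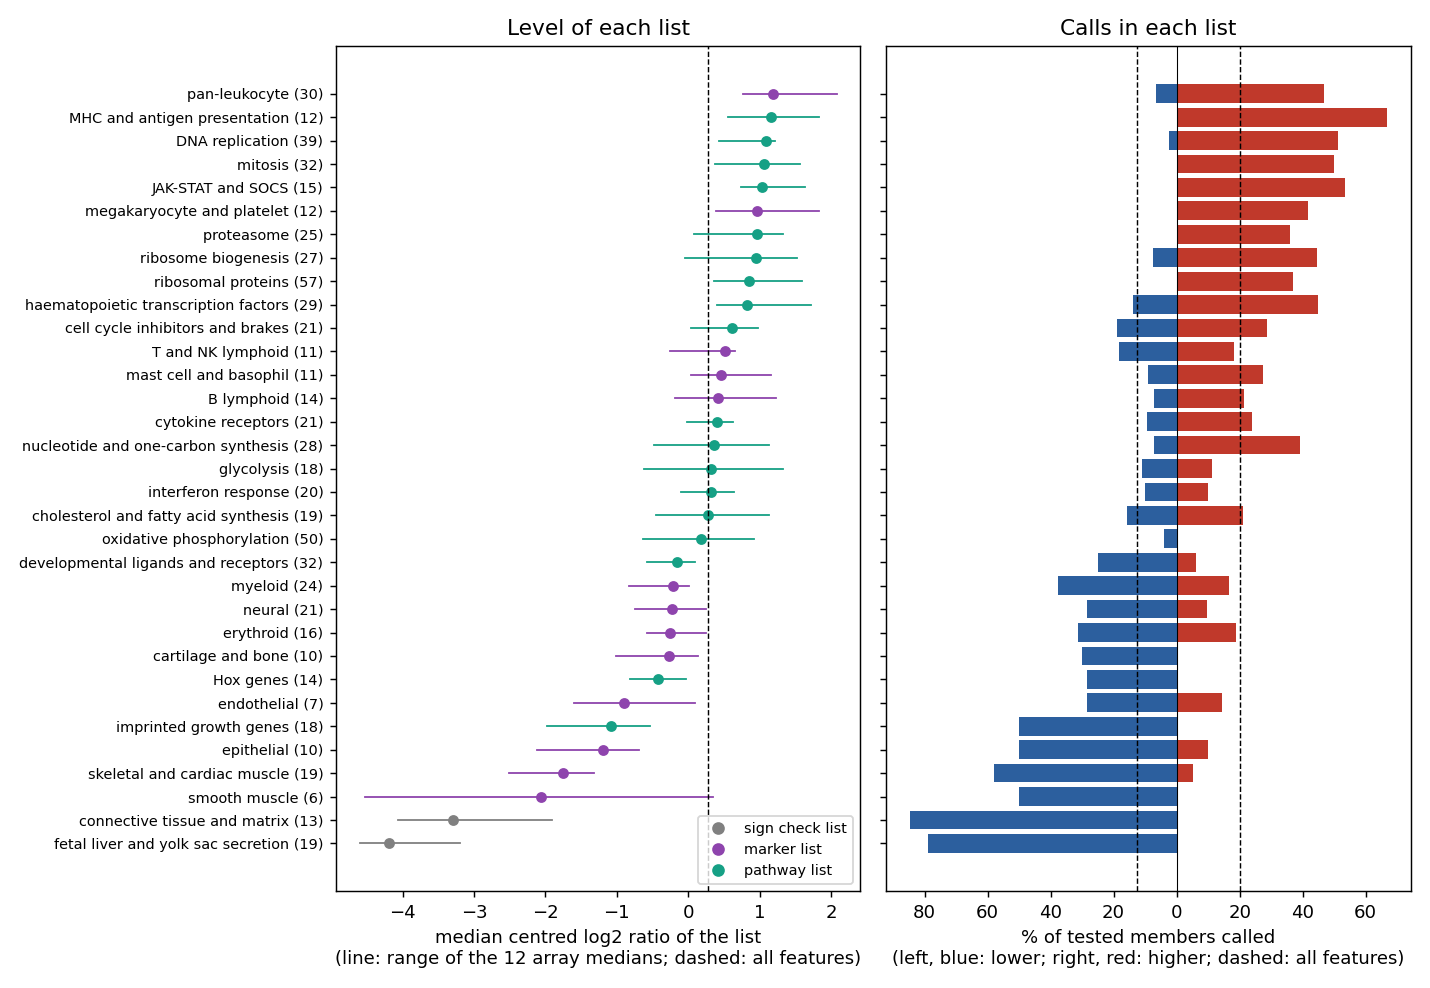
Left, the median centred log2 ratio of each gene list (point) with the range of the 12 array medians (line), and the number of tested genes in brackets. Right, the percentage of tested members called higher (red, to the right) or lower (blue, to the left), with dashed lines for all features at 0.27 on the left and at 20% and 12.5% on the right.

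The B, T and NK, myeloid, mast cell and erythroid lists each held genes called on both sides. Among 14 B lymphoid genes, 3 were called higher (21.4%) and 1 lower (7.14%), with a median of 0.41, so the list as a whole was near the 20% and 12.5% of all features. Dntt, the polymerase that adds bases at immunoglobulin joints in lymphoid precursors, lay between 1.66 and 4.74 with a median of 3.08 (mean 3.03, SD 1.0). Cd79a, a signalling chain of the B cell receptor, lay between 0.58 and 4.40 with a median of 2.92 (SD 1.20), and its partner Cd79b was at 3.88 on 10 arrays. Cd79a and Dntt were above 0 on all 12 arrays, while the surrogate light chain genes Igll1 (0.05, SD 0.84), Vpreb1 (0.78, SD 1.75) and Vpreb3 (0.25, SD 1.45) were not called. Blk, a kinase of B cells, was called lower at -3.15 (SD 2.78), and Ebf1, a factor of early B cells, was at -4.64 on 3 arrays. Among 11 T and NK genes 2 were higher, Klrd1 and Cd6 (1.35), and 2 lower, Gata3 (-2.17) and Ncr1 (-1.24), or 18.2% each, again close to all features. Cd3e, Cd3d and Cd3g, chains of the T cell receptor complex, had values of -0.13, -2.69 and -4.23 on 11, 11 and 8 arrays.

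Among 24 myeloid genes, 4 were called higher (16.7%) and 9 lower (37.5%), against 20% and 12.5% of all features, with a median of -0.21. Prtn3, a granule protease of immature myeloid cells, lay between 2.28 and 7.73 with a median of 3.34 (SD 1.49), and Fcer1g, the common Fc receptor gamma chain, had a mean of 2.39 (SD 1.16). Mpo, the peroxidase of the same granules, and Aif1, a macrophage gene, were barely past the size limit at 1.05 (SD 1.44) and 1.03 (SD 0.83). The 9 lower genes included S100a9 and Lyz2. S100a9, a calcium-binding protein of neutrophils, lay between -6.24 and -1.99 with a median of -3.21 (mean -3.46, SD 1.03), and Lyz2, lysozyme, between -6.69 and -0.24 with a median of -1.49 (mean -1.90, SD 1.87). Ctsg, another granule protease, was at -5.09 on 11 arrays. Of 11 mast cell and basophil genes, 3 were higher (27.3%) and 1 lower (9.09%). The higher ones were Gata2 (2.80, SD 0.74), Cd200r3 (2.70, SD 0.90) and Epx (1.53, SD 1.61). Cpa3, a mast cell carboxypeptidase, was lower at -1.48 (SD 1.12).

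Several transcription factors of the erythroid and megakaryocyte lineages were higher in the samples, while 5 of the 13 other erythroid genes tested were lower and none higher. Gata1, a master factor of red cells and megakaryocytes, lay between 0.16 and 3.33 with a median of 2.29 (mean 2.14, SD 0.92). Zfpm1, its cofactor FOG-1, lay between 2.03 and 3.85 with a median of 2.42 (mean 2.5, SD 0.49). Tal1, another of their partners, lay between 0.50 and 3.09 with a median of 1.85 (SD 0.69). Nfe2, a factor of globin and platelet genes, had a mean of 3.21 (SD 1.46). All 4 were above 0 on all 12 arrays. Hba-a1, adult alpha globin, lay between -3.60 and -0.87 with a median of -2.45 (mean -2.48, SD 0.93), and Hba-x, the embryonic zeta globin, between -4.22 and -0.36 with a median of -2.21 (mean -2.31, SD 1.32). Fech, the last enzyme of haem synthesis, had a mean of -2.82 (SD 1.52), Slc25a37, an iron carrier of mitochondria, -2.38 (SD 1.14), and Ermap, a red cell membrane protein, -2.51 (SD 0.81). Hba-a1, Hba-x, Fech and Ermap were below 0 on all 12 arrays, and Alas2, the first enzyme of red cell haem synthesis, was at -7.33 on only 4 arrays. Of the 16 erythroid genes tested, 3 were higher (18.75%), all of them factors, and 5 lower (31.25%). Of all features, 20% were called higher and 12.5% lower, so the share of higher genes was near that of all features. The other 8 were not called, among them Urod, an enzyme of haem synthesis, at 0.54 (SD 2.03), Epb42, of the red cell skeleton, at 0.20 (SD 0.55), and Rhag, a red cell membrane channel, at -0.40 (SD 0.67). The factors Klf1 and Gfi1b, at 0.10 on 11 arrays and 0.26 on 5, were near 0. Hba-x had group means of -1.09 and -1.49 for WT (0GH, 1GH) against -3.50 and -3.16 for NLS, a difference that the F test across groups did not call. An embryo contains red cells of its own, so these ratios are taken against a mixture that holds globin RNA.

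**Figure D4:**
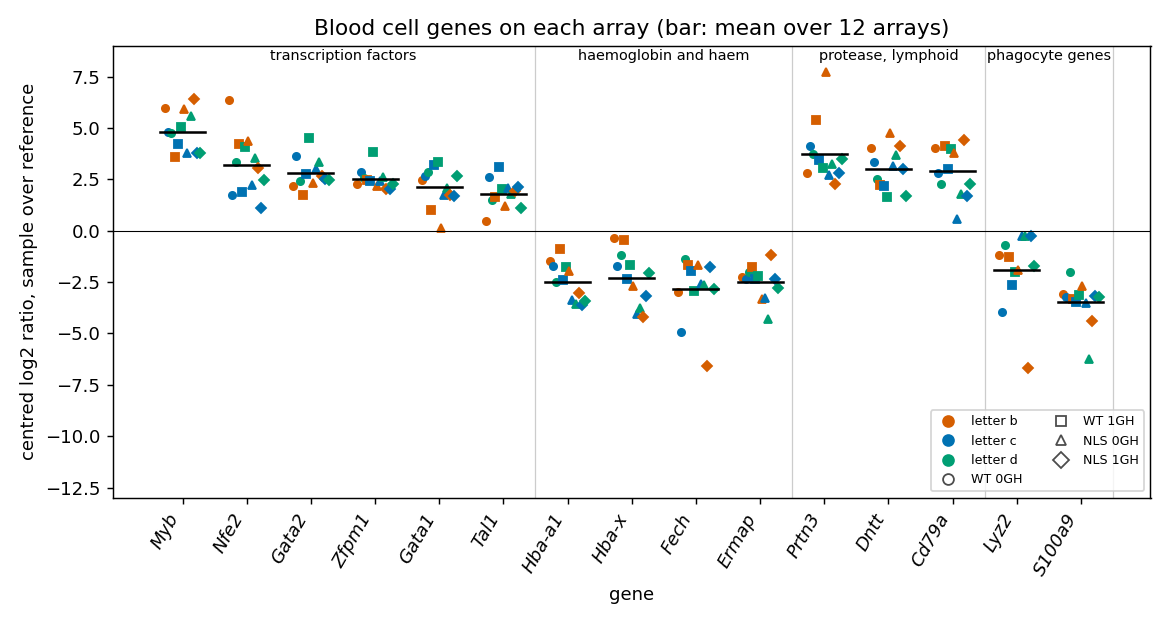
Centred log2 ratio (y axis) of blood cell genes (x axis) on the 12 arrays, with colour for the letter, symbol for the group and a bar for the mean. The 6 transcription factors and Prtn3, Dntt and Cd79a lie above 0 on every array, and the haemoglobin, haem, Lyz2 and S100a9 genes below 0.

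Of 12 megakaryocyte and platelet genes, 5 were higher (41.7%) and none lower, against 20% and 12.5% of all features, with a median of 0.97. They were Rab27b, a vesicle GTPase (3.34, SD 1.90), Zfpm1, P2rx1, an ATP-gated channel (1.89, SD 1.08), Vwf, von Willebrand factor (1.84, SD 1.75), and Gp9, a platelet adhesion glycoprotein (1.22, SD 0.30). Letter means in the order b, c, d were 4.01, 0.78 and 0.75 for Vwf and 4.96, 1.59 and 3.46 for Rab27b. Vwf differed among the letters by limma's F test (adjusted p = 0.037). The 2 tested genes with a mean below 0, Gp1bb (-1.57, SD 2.46) and Ppbp (-0.74, SD 0.77), were not called. Among genes on fewer arrays, Pf4, platelet factor 4, was at -4.47 on 10, Treml1 at -2.31 on 11 and Gp5 at -1.65 on 8. F2r (4.34 on 9), Tubb1 (3.57 on 10), F2rl2 (1.06 on 7), Selp (0.59 on 11) and Gfi1b (0.26 on 5) lay above 0. Among 29 haematopoietic transcription factors, 13 were higher (44.8%) and 4 lower (13.8%), with a median of 0.82. The share of lower factors was near that of all features. Besides Myb and those above, Ikzf2 (3.62, SD 1.14), Runx1 (2.56, SD 1.06), a founding factor of blood stem cells, and Spi1, the PU.1 factor of myeloid and B cells (2.02, SD 0.58), were higher. Gata3, Mef2c (-1.59), Id3 (-1.38) and Cebpa (-1.89, SD 2.38), a factor of granulocytes, were lower. With Gapdh controls as zero the medians of these 2 lists were 0.16 and 0.01.

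The growth hormone receptor belongs to the cytokine receptors, which signal through JAK kinases and STAT factors. Ghr itself lay between -0.70 and 2.69 with a median of 0.06 (mean 0.42, SD 1.07, limma adjusted p = 0.252) and was not called. Its group means were -0.02 and -0.20 for WT (0GH, 1GH) and 0.91 and 0.97 for NLS, and 6 of the 12 arrays lay above 0. Of 21 cytokine receptors tested, 5 were higher (23.8%) and 2 lower (9.52%), near the 20% and 12.5% of all features, and the list's median of 0.41 became -0.40 with Gapdh controls as zero. Besides Csf2rb2, the higher ones were Il2ra, the interleukin 2 receptor alpha chain (2.11, SD 0.89), Cxcr4, a chemokine receptor (2.01, SD 0.91), Il10rb (1.05, SD 1.41) and Il6ra (1.0, SD 0.33). Lifr, the leukaemia inhibitory factor receptor (-4.18, SD 1.96), and Lepr, the leptin receptor (-2.89, SD 1.97), were lower. Of 15 JAK-STAT and SOCS genes, 8 were higher and none lower, with a median of 1.04. Cish, an inhibitor induced through STAT5, lay between 0.41 and 3.22 with a median of 2.43 (mean 2.07, SD 0.90), with group means of 1.44 and 1.96 for WT and 2.38 and 2.5 for NLS, with 0GH before 1GH. Socs2, another inhibitor of growth hormone signalling, had a mean of 1.98 (SD 0.90) and Jak3 one of 1.82 (SD 0.89). The other 7 genes of the list were not called, among them Pim1 (-1.07, SD 2.44), Ptpn11 (-0.47, SD 1.26) and Socs6 (0.08, SD 1.42). With Gapdh controls as zero the list's median was 0.23. Jak2, the kinase bound to the growth hormone receptor, was at 3.72 on 11 arrays, while Socs1 was at -0.05 on 9 and Pim2 at -1.46 on 6. Stat5a had no value, and Stat5b was not among the named spots.

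Most antigen presentation genes with all values belonged to the class I pathway. Of 12 genes tested, 8 were higher (66.7%) and none lower, against 20% and 12.5% of all features, with a median of 1.16. Tap2, a chain of the peptide transporter, lay between 2.54 and 6.16 with a median of 3.81 (mean 4.0, SD 1.02). Its partner Tap1 (1.56, SD 1.01), the proteasome subunit Psmb8 (1.96, SD 0.85) and B2m, the light chain of class I molecules (1.20, SD 0.59), were higher too. Not called were H2-D1, a classical class I gene, at 0.87 (SD 0.47), Psmb10 at 0.97 (SD 1.11) and Tapbp at 0.55 (SD 0.52). The class I genes H2-K1 and H2-T24 had values on 7 arrays each, with means of -0.27 and -0.89. For class II, H2-Aa was at -0.02 (SD 0.29), H2-Ab1 at -4.08 on 5 arrays and the invariant chain Cd74 at -0.91 on 11. Other class II genes lay above 0, with H2-DMb1 at 4.77 and H2-DMb2 at 1.06 on 10 arrays each, H2-Oa at 2.58 on 6 and H2-Ob at 0.19 on 9. H2 genes are close copies, and their spots can share signal. Of 20 interferon response genes, 2 were higher and 2 lower (10% each), against 20% and 12.5% of all features. Their median was 0.31, close to the 0.27 of all features.

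Genes of cell division lay above the median of all features. Of 39 DNA replication genes, 20 were higher (51.3%) and 1 lower (2.56%), against 20% and 12.5% of all features, with a median of 1.10. Pola1, the catalytic subunit of DNA polymerase alpha, had a mean of 3.91 (SD 1.78), Dut, which removes dUTP, 2.34 (SD 0.50), Top2a, topoisomerase II, 1.79 (SD 0.66), and Mcm4, of the replicative helicase, 1.5 (SD 0.64). Pcna, the clamp of the polymerases, was not called at 0.41 (SD 0.43), nor was Tk1, thymidine kinase, at 0.02 (SD 0.47). Of 32 mitosis genes, 16 were higher (50%) and none lower, with a median of 1.06. Ndc80, of the kinetochore, had a mean of 3.75 (SD 1.52), Kif4, a chromosome motor, 2.98 (SD 0.90), Kif11, the spindle motor, 2.85 (SD 1.27), and Mki67, the proliferation antigen, 1.23 (SD 0.56). Aurkb (-0.19, SD 0.49) and Foxm1 (-0.20, SD 0.55) were at the median. Among cell cycle inhibitors, 6 of 21 were higher and 4 lower. Cdkn1c, the imprinted p57 inhibitor of embryonic tissues, lay between -5.31 and -2.94 with a median of -4.31 (mean -4.25, SD 0.82), whereas Cdkn2c, the p18 inhibitor, lay between 1.5 and 2.86 with a median of 2.18 (mean 2.17, SD 0.45). The ranges of these 2 inhibitors did not meet on any array.

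Growth and housekeeping lists differed in how far they stood from the median. Of all features, 20% were called higher and 12.5% lower. Of 57 ribosomal protein genes, 21 were higher and none lower, with a median of 0.85. Rpl5 (1.77, SD 0.52), Rps3 (1.34, SD 0.50) and Rpl11 (1.33, SD 0.46) were among the 21, while Rplp1 (-0.06, SD 0.65) and Rplp2 (-0.10, SD 0.60) were at the median. With Gapdh controls as zero their median was 0.05. Of 27 ribosome biogenesis genes, 12 were higher and 2 lower, with Npm1, nucleophosmin, at 1.76 (SD 0.54) and Ncl, nucleolin, at 1.14 (SD 0.76). Of 28 nucleotide and one-carbon genes, 11 were higher and 2 lower. Prps2 led by far, ahead of Dck, a salvage kinase (2.89, SD 2.29), and Ppat, the first committed enzyme of purine synthesis (2.71, SD 1.77), and Shmt1 was lower at -1.89 (SD 2.54). Of 25 proteasome genes, 9 were higher (36%) and none lower. Oxidative phosphorylation was flat, with none of 50 higher and 2 lower, a median of 0.18, and Cox4i1 at 0.30 (SD 0.57). Of 18 glycolysis genes, 2 were higher and 2 lower (11.1% each), with Pgk1 at 1.54 (SD 0.98). The Gapdh gene spot lay between -0.48 and 1.16 with a median of 0.41 (mean 0.42, SD 0.48). Of 19 cholesterol and fatty acid genes, 4 were higher (21.1%) and 3 lower (15.8%), near the shares of all features. Idi1 was at 2.27 (SD 1.73) and Scd1 at -3.0 (SD 2.31).

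Among lists of embryonic tissues other than those that fixed the sign, called genes were more often lower than higher, and many members were not called. Of all features, 20% were called higher and 12.5% lower. Of 19 muscle genes, 11 were lower and 1 higher, with a median of -1.76. Acta1, skeletal actin, had a mean of -4.23 (SD 1.95), Des, desmin, -4.35 (SD 1.37), and Myog, the muscle factor myogenin, -5.32 (SD 2.19). Myl2, a ventricular myosin light chain, was the exception, between 2.14 and 5.83 with a median of 3.33 (mean 3.68, SD 1.25) and above 2 on all 12 arrays. Of 18 imprinted growth genes, 9 were lower and none higher, with H19, Dlk1 and Cdkn1c among them and Igf2, the embryonic growth factor, at -2.11 (SD 0.70). Of 10 epithelial genes, 5 were lower, such as Krt5 (-5.40, SD 2.0), and Grhl2 was higher at 1.92 (SD 2.5). Of 10 cartilage and bone genes 3 were lower (30%) and none higher, with a median of -0.26. The 12 genes of this list on fewer arrays all had means below 0, such as Sox9 at -4.26 on 11 arrays and Col11a1 at -7.70 on 10. Of 6 smooth muscle genes 3 were lower, and of 7 endothelial genes 2 were lower and 1, Vwf, was higher.

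The list medians of neural, Hox and developmental genes with all values lay near 0, between -0.42 and -0.16, as did that of cartilage and bone. In each of these lists, lower calls were nonetheless more frequent than among all features, and higher calls less frequent. Of 21 neural genes, 6 were lower (28.6%) and 2 higher (9.52%), against 12.5% and 20% of all features, with a median of -0.23. Neural genes measured on fewer arrays were mostly low, such as Fabp7 at -5.10 on 10 and Sox2 at -6.85 on 3. Only Dlx2 among them lay above 0. Tubb3, the neuronal beta tubulin, was high, between 1.35 and 5.68 with a median of 3.92 (mean 3.76, SD 1.10), whereas Gap43, a growth cone protein, had a mean of -4.41 (SD 1.47). Pax6 was called higher at 1.35 (SD 1.43) with 9 of 12 arrays above 0. Of 14 Hox genes, 4 were lower (28.6%) and none higher, with Hoxd3 at -4.55 (SD 2.31). Hox genes without all values were mostly below 0, such as Hoxa7 at -4.36 on 8 arrays, while Hoxb6, Hoxd8 and Hoxd9 lay above 0. Of 32 developmental ligands and receptors, 8 were lower (25%) and 2 higher (6.25%). Fgfr2 (-3.89, SD 2.65) and Notch1 (-2.68, SD 1.41) were lower, and Igf1r, the receptor of insulin-like growth factor 1 (1.13, SD 0.61), and Sfrp1, a Wnt inhibitor (1.5, SD 0.40), were higher. Sfrp1 lost its place when its further spots with missing arrays were counted, with a mean of -1.22, so the spots of this gene differed. Of the 367 genes with several complete spots, 148 had spots of opposite sign and the median spread between spots was 0.916.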

How the data were processed

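The authors deposited log2 ratios (base inferred) per spot. Per the labels' design text, a Lowess curve used 50% of the points, and control-channel values under 200 were set to 200. No source used here names the scanner, the image software or the background step. Signs were turned and each array was centred on the median of its gene spots. Of 23040 spots, 573 blank, 235 Gapdh and 94 YIR spots were left out, and spots of one gene with values on all 12 arrays were averaged. Symbols came from GEO's platform annotation: 16720 spots had 1 symbol, 142 several and 5276 none.

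The mean over 12 arrays was tested against 0 with limma 3.58.1 in R 4.3.3 (lmFit, eBayes, two-sided, Benjamini-Hochberg over 10762 features), and groups and letters with moderated F tests. The scripts were tested on simulated data. Named genes are the 20 highest and lowest by mean, the 15 by most moderate array, the 10 by mean over SD, and the 4 extremes of each of 33 lists, with Ghr, Stat5a, Stat5b and Gapdh. Other genes in the text were chosen after their values were seen. The lists and rules were chosen with earlier results of these data known. Alternatives covered centring, quantile normalization, missing values, extreme ratios, spot averaging, the letter as a replicate block, and each array and letter left out. The number of arrays limits the precision.

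Deviations from group means correlated between 0.0433 and 0.263 within letters and between -0.187 and 0.066 across them.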

Additional observations from a re-analysis of the deposited data

Results flagged for a closer look

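Among the genes named as extremes of a list, 5 had all 3 arrays of one group above 0 and all 3 of another below 0. The difference between these groups was not tested, and none of these genes passed the F test across the 4 groups. Bcl11b had a mean of 1.04 in WT 0GH and 2.98 in NLS 1GH against -0.79 in WT 1GH. Myh11 had -1.31 in WT 1GH against 3.40 in NLS 0GH. Smc2 had 0.43 in WT 1GH against -1.23 in NLS 0GH. Ms4a1 had 0.82 in NLS 1GH against -0.60 in WT 1GH and -2.28 in NLS 0GH. Psmd7 had -3.47 in WT 1GH against 0.67 in NLS 1GH.

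Spots outside the gene measurements also gave values. Between 7.85% and 19.6% of the blank spots and between 6.38% and 16.0% of the YIR spots had a value on an array.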

How the results depend on the processing

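The counts of higher and lower features kept within 1.5 times of 2156 and 1349 except as follows. With Gapdh controls as zero they were 518 and 3106. With at least 9 arrays, 2672 were lower, and with extreme ratios also set to missing, 2583, since 15452 and 15290 features were then tested. Without a size threshold 3590 were higher, and with a threshold of 2 there were 512 and 582. With the letter as a random replicate block (correlation 0.148), 1892 were higher and 1161 lower. Leaving out a letter or an array gave 1777 to 2543 higher and 1230 to 1802 lower. No setting called a difference among groups, and with the letter as a fixed replicate block the lowest adjusted p was 0.567. The 71 differences among letters became 0 with the group as a term, 2717 without centring and 350 with quantile normalization. The causes were not tested.

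List medians changed sign under Gapdh centring for B lymphoid (-0.39), T and NK (-0.29), mast cell and basophil (-0.35), cytokine receptor (-0.40), interferon (-0.49), cell cycle inhibitor (-0.20), nucleotide (-0.45), glycolysis (-0.48), cholesterol (-0.53) and oxidative phosphorylation (-0.63) genes. The last also turned with the features' median as zero (-0.06), and that of developmental ligands and receptors without centring (0.02). The T and NK median also turned with at least 9 arrays (-0.23), with extreme ratios missing (-0.24), with partly measured spots averaged, an alternative chosen after seeing the data (-0.32), and over the fits without a letter or an array it ran from -0.24 to 0.61. Sfrp1 turned to -1.22 with at least 9 arrays and with partly measured spots. The sign check stayed at 49 to 53 of 55 genes.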
